A study of Arabidopsis thaliana with 16 samples.

Results

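The transcriptome of Arabidopsis seedlings after 3 h in salt was set directly against that of seedlings after 3 h in methyl viologen (MV). The comparison takes 8 of the 16 Affymetrix ATH1 arrays of the study, 4 from 200 mM NaCl and 4 from 25 µM MV, and all 22746 probe sets of the array other than its 64 controls. The arrays were chosen by their labels alone. Under each treatment, 2 arrays come from a line that overexpresses the rice gene OsGRX8 and 2 from the wild type. The seedlings were of the Columbia ecotype and 14 days old, grown on MS medium in 16 h light and 8 h dark. The 4 water arrays of the same lines (2 each, also 3 h) were used to tell which treatment moved a gene, and the 4 arrays from 100 µM indole-3-acetic acid (IAA) stand outside the comparison. The product of OsGRX8 is a glutaredoxin of the plant-specific CC type, which uses glutathione to reduce disulfides in other proteins. The sources used here give neither the promoter of the transgene nor the number of independent lines. Both arrays of a group are biological replicates by the design text, which says nothing of separate cultures, so the p-values measure the spread between these samples.

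High NaCl lowers the water potential around the root and lets sodium enter cells, and plants answer with abscisic acid signalling, protective hydrophilic proteins and changes in growth. MV (paraquat) takes electrons from photosystem I in the light and passes them to oxygen, so that superoxide and then hydrogen peroxide form in the chloroplast. Heat shock proteins bind unfolded proteins, and glutathione S-transferases and family 1 glycosyltransferases attach glutathione or sugars to reactive or foreign compounds. Each agent was given at a single dose and time, and nothing in the sources used here matches the doses in strength.

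Values are log2 signals after robust multi-array averaging (RMA), and a difference is NaCl minus MV on the log2 scale, averaged over the lines, with its standard error (± SE) from a limma fit to the 12 arrays. A probe set is called where the Benjamini-Hochberg adjusted p, taken over all 22746, is below 0.05. Where 4 values are listed for a treatment, the first 2 are the replicates of the OsGRX8 line and the other 2 those of the wild type. Probe sets of exactly 1 gene are named, and the brightest stands for a gene with several. A gene known here only by its locus code, as 11798 of the 13355 named genes are, is given by that code and without a role, unless a list placed it by locus.

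Replicate arrays correlated at 0.987 to 0.994. On a first principal component with 60.2% of the variance, the NaCl arrays lay between -67.2 and -62.4, the MV arrays between 36.4 and 45.1 and the water arrays between 18.8 and 27.3. On the NaCl arrays the 3′ probe set of the GAPDH control exceeded its 5′ probe set by 0.34 to 0.90 (log2). This 3′ to 5′ difference was 0.62 to 1.45 on the MV arrays and 0.98 to 1.28 on the water arrays. For the ubiquitin control it was 1.46 to 1.95 under NaCl, 2.0002 to 2.12 under MV and 1.91 to 2.08 in water. The ubiquitin ranges of NaCl and MV thus did not overlap. For the actin control it was 3.51 to 3.93 under NaCl, 3.62 to 3.96 under MV and 3.21 to 3.90 in water. The part of these controls in the differences was not tested. In whole seedlings, fewer cells of a type and less RNA per cell cannot be told apart. The seedling tissue showed in the markers: the rubisco activase gene RCA read 11.1 to 11.6 and the root beta-glucosidase gene PYK10 read 8.73 to 9.69 over the 12 arrays. The pollen marker AMS (0.89 to 1.25) and the seed marker OLEO3 (0.96 to 1.42) lay close to a bacterial control probe set (trp, 0.83 to 0.99).

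Salt and MV left seedlings far apart. Of 22746 probe sets, 8110 were called between the treatments (35.7%), 4346 higher under NaCl (19.1%) and 3764 higher under MV (16.5%). The NaCl and MV arrays did not overlap for 7256 probe sets (31.9%), 3852 of them higher under NaCl and 3404 higher under MV. At 2-fold or more the calls numbered 1402 with NaCl higher and 1297 with MV higher. Among larger differences those with MV higher were the more frequent: 258 against 359 at 4-fold, 55 against 108 at 8-fold and 13 against 28 at 16-fold. At the median, a 95% confidence interval reached 0.27 in log2 (1.21-fold) to either side, a limit set by the number of arrays.

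The split between the directions is near even and rests on the scaling. Of the calls, 53.6% were higher under NaCl on the deposited values and 47.8% once each array was centred on its median. The most distant probe sets carried no single gene: one at -6.01 and one at 4.73 were unnamed here.

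**Figure D1:**
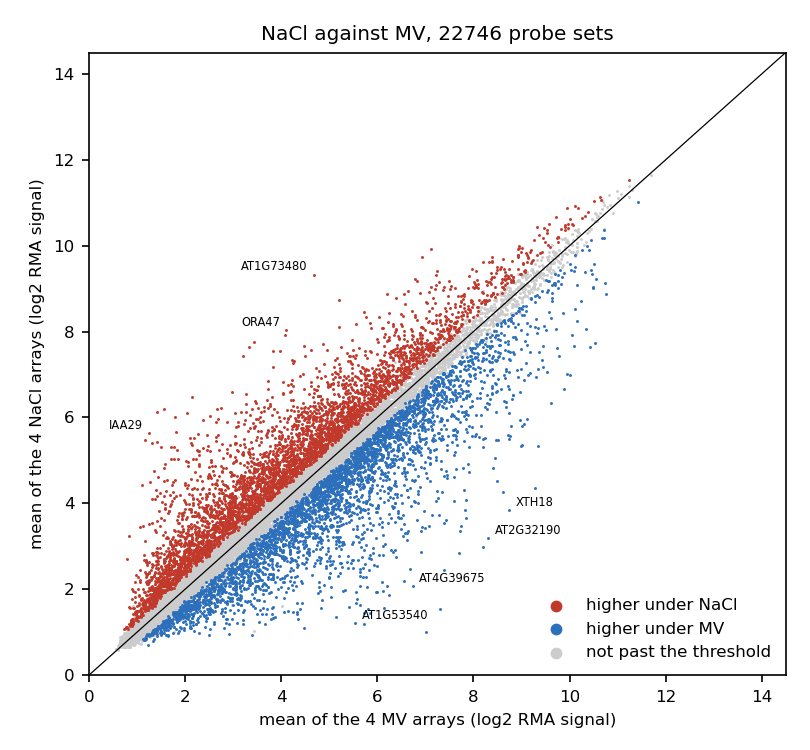
Mean log2 RMA signal of each probe set on the 4 NaCl arrays (vertical axis) against the 4 MV arrays (horizontal axis). Red points are the 4346 called higher under NaCl, blue points the 3764 called higher under MV and grey points the rest, with the diagonal marking equal signal. Labelled genes such as AT1G73480 and XTH18 lie far from it.

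The genes that stood highest under NaCl relative to MV included regulators of auxin and jasmonate responses. Of the 15 largest differences in this direction, 12 belonged to genes with a locus code only. IAA29, an Aux/IAA repressor of auxin signalling, read 5.44, 6.01, 5.90 and 5.16 on the NaCl arrays, 1.21, 1.13, 1.47 and 1.22 on the MV arrays, and 1.53, 1.62, 1.42 and 2.21 in water. Its NaCl arrays lay clear of the other 8, and its difference was 4.37 ± 0.21 (adjusted p = 1.11e-07). Its MV values lay near those of the bacterial control, so this difference is a lower bound and no fold is given, as for other genes at that level. HAT2, a homeodomain-leucine zipper factor induced by auxin, gave 8.64, 8.82, 8.90 and 8.62 under NaCl, against 5.17, 5.19, 5.29 and 5.11 under MV and 5.84, 6.05, 6.04 and 6.48 in water. HAT2 was thus high under NaCl and lowest under MV, with no overlap between any of the treatments (3.55 ± 0.12, 11.7-fold, adjusted p = 2.32e-08). ORA47, an AP2/ERF factor that activates jasmonate synthesis genes, gave 7.91, 8.18, 7.86 and 8.16 under NaCl, against 3.66, 3.80, 4.80 and 4.17 under MV and 2.29, 2.08, 2.64 and 2.82 in water. Both treatments raised ORA47 over water, NaCl by 5.57 and MV by 1.65, and they stood 3.92 ± 0.15 apart (15.2-fold, adjusted p = 3.21e-08).

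The largest difference in this direction belonged to AT1G73480. AT1G73480 read 9.29, 9.32, 9.32 and 9.38 on the NaCl arrays, 4.14, 5.13, 4.55 and 4.90 on the MV arrays, and 3.29, 3.87, 3.24 and 4.22 in water. Its 4 NaCl values ran from 9.29 to 9.38, and it was 25.1-fold higher under NaCl (4.65 ± 0.25, adjusted p = 1.98e-07). AT1G48100 gave 5.25, 5.66, 4.70 and 5.97 under NaCl, against 1.48, 1.31, 1.15 and 1.30 under MV and 1.56, 1.48, 1.51 and 1.89 in water. For AT1G48100 the MV and water arrays ran together near the level of the bacterial control, so that the difference of 4.09 ± 0.23 is a lower bound (adjusted p = 2.67e-07). The other members of the 15 largest, all with arrays that do not overlap, were AT1G60590 (3.86), AT5G03230 (3.84), AT1G49450 (3.60), AT1G78170 (3.41), AT3G45210 (3.34), AT1G10640 (3.34), AT1G64590 (3.31), AT3G48510 (3.26), AT5G02170 (3.22) and AT5G57340 (3.12). Some of these had MV values low enough that the difference may be a lower bound. Examples are AT1G10640 (1.27 to 2.14), AT1G64590 (1.26 to 2.13) and AT3G48510 (1.34 to 1.85). Against water, NaCl alone had raised 10 of the 15, both treatments had raised 2, and for 3 NaCl had raised and MV lowered the signal.

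On the other side stood a wall enzyme, stress chaperones and a peroxidase. XTH18, a xyloglucan endotransglucosylase/hydrolase that cuts and rejoins wall xyloglucan, gave 4.04, 3.57, 3.82 and 3.93 under NaCl, against 8.35, 8.64, 9.15 and 8.86 under MV and 7.78, 7.88, 7.76 and 8.11 in water. NaCl had moved it by -4.04 and MV by 0.87 against water, which left it 30.0-fold higher under MV (-4.91 ± 0.14, adjusted p = 5.93e-09). AT1G53540, listed as a small heat shock protein gene, read 1.03, 1.67, 1.09 and 1.08 on the NaCl arrays, 5.80, 5.28, 6.005 and 5.07 on the MV arrays, and 1.94, 1.47, 1.32 and 1.77 in water. Here the NaCl and water arrays ran together near the level of the bacterial control and all MV arrays stood above 5.0, so that the difference of -4.32 ± 0.23 is a lower bound on its size (adjusted p = 1.89e-07). Prx37, a class III peroxidase of the cell wall, gave 1.40, 2.21, 1.35 and 1.61 under NaCl, against 6.37, 5.24, 6.05 and 4.88 under MV and 6.08, 5.97, 5.85 and 4.79 in water. The MV and water values of Prx37 overlapped, and the NaCl values were low enough that its difference of -3.99 ± 0.33 (adjusted p = 4.51e-06) may be a lower bound on its size.

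The largest difference of any named gene was that of AT2G32190. AT2G32190 read 3.64, 2.44, 3.36 and 3.30 on the NaCl arrays, 7.58, 7.94, 9.18 and 8.56 on the MV arrays, and 7.70, 7.27, 7.85 and 7.50 in water. All NaCl arrays of AT2G32190 stood below all others, 35.0-fold below MV (-5.13 ± 0.24, adjusted p = 1.08e-07). AT4G39675 differed by -4.66, AT2G47550 by -4.39, AT5G08350 by -4.35, AT5G19890 by -4.27, AT1G56060 by -4.19, AT2G32030 by -4.16 and AT5G48430 by -4.12. The small heat shock protein gene AT2G29500 differed by -4.04, AT2G44380 by -3.93, AT3G60420 by -3.87 and AT3G48640 by -3.85. Some of these had NaCl values low enough that the difference may be a lower bound on its size. Examples are AT2G47550 (1.25 to 1.74), AT5G19890 (1.33 to 1.74) and AT3G60420 (1.25 to 2.31). Of the 15 largest in this direction, 8 had been lowered by NaCl and raised by MV against water. A further 5 had been lowered by NaCl alone, 1 raised by MV alone and 1 lowered by both. Adjusted p over all 30 genes with the largest differences was at most 4.51e-06.

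**Figure D2:**
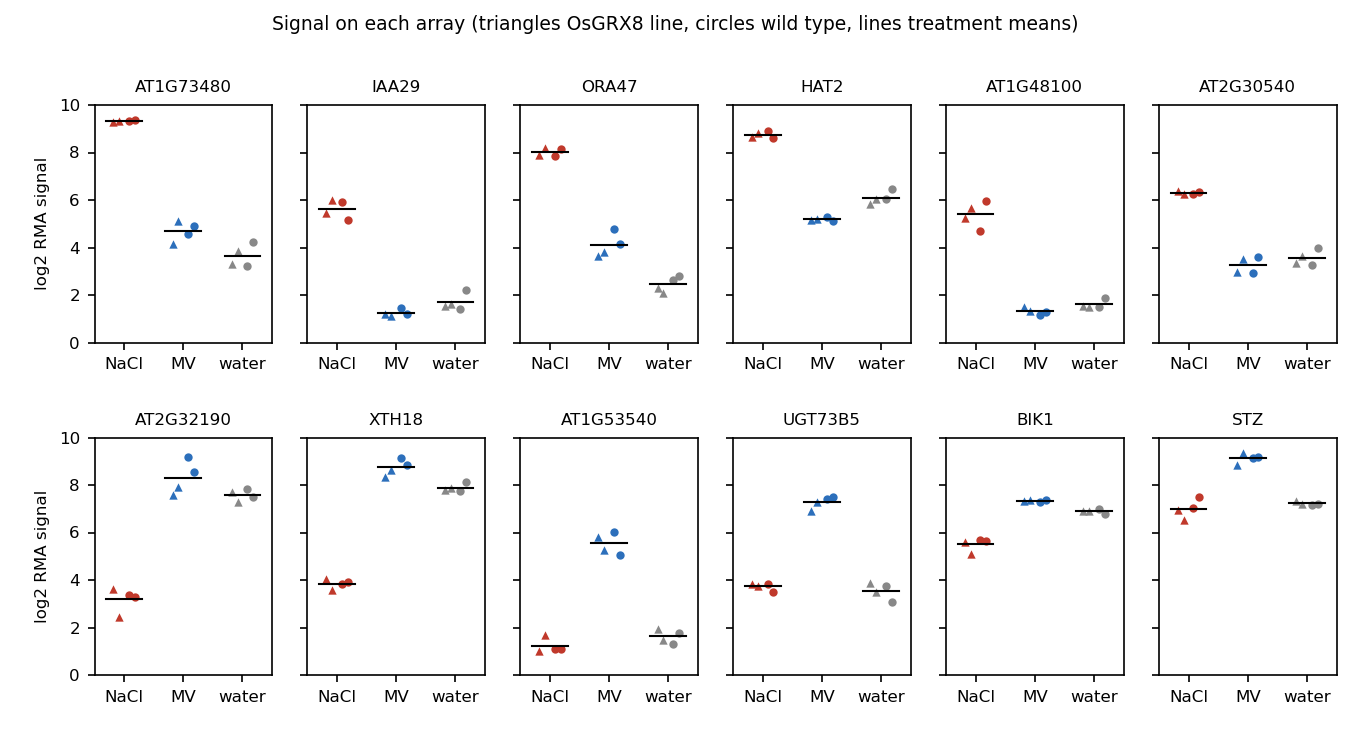
Log2 RMA signal of 12 genes on each array, with NaCl, MV and water from left to right, triangles for the OsGRX8 line, circles for the wild type and a line at each treatment mean. The top row holds genes higher under NaCl, such as IAA29 with NaCl values from 5.16 to 6.01 against 1.13 to 1.47 under MV. The bottom row holds genes higher under MV, such as XTH18 with NaCl values from 3.57 to 4.04 against 8.35 to 9.15 under MV.

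Most of the difference between the treatments came with changes that NaCl made against water. NaCl against water gave 3632 probe sets higher (16%) and 3385 lower (14.9%), and MV against water gave 1253 higher (5.51%) and 1282 lower (5.64%). These contrasts share the 4 water arrays, and each is used here only to place a gene. Of the 4346 probe sets higher under NaCl, NaCl alone had raised 2478 (57.0%), MV alone had lowered 441, and 346 had been raised by NaCl and lowered by MV. Both treatments had raised 128 and lowered 23 of them, and 930 (21.4%) passed against water for neither. Of the 3764 higher under MV, NaCl alone had lowered 2077 (55.2%), MV alone had raised 450, and 310 had been lowered by NaCl and raised by MV. Both had lowered 124 and raised 73, and 730 (19.4%) passed for neither. Failing the test against water does not show that a treatment left a gene unmoved.

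The classes that need a call for MV against water depended on single arrays. That contrast held 2535 calls in all, and 1585 without OsGRX8 line MV replicate 2, 1549 without wild type water replicate 2, 1539 without OsGRX8 line water replicate 1 and 1520 without OsGRX8 line water replicate 2. The 441 that MV alone had lowered became 244 without OsGRX8 line MV replicate 2, 267 without wild type MV replicate 1, and 257, 271 and 291 without wild type water replicate 2 and OsGRX8 line water replicates 1 and 2. The 346 raised by NaCl and lowered by MV became 200 without OsGRX8 line MV replicate 2, 219 without wild type MV replicate 1, and 151 to 208 without a water array. The 310 lowered by NaCl and raised by MV became 193 and 198 without OsGRX8 line water replicates 1 and 2. The 2478 raised by NaCl alone ranged from 2027 to 2574 and the 2077 lowered by NaCl alone from 1781 to 2120 with any 1 of the 12 arrays left out. With NaCl higher, the 128 raised by both became 83 without OsGRX8 line MV replicate 2 and 77 and 79 without OsGRX8 line water replicates 1 and 2, and the 23 lowered by both ranged from 8 to 33, with 8 to 14 without any 1 NaCl array, wild type water replicate 2 or either OsGRX8 line water array. With MV higher, the 73 raised by both became 47 without OsGRX8 line water replicate 2. The 124 lowered by both became 53 to 80 without wild type MV replicate 1 or 2, OsGRX8 line MV replicate 2 or any 1 water array.

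**Figure D3:**
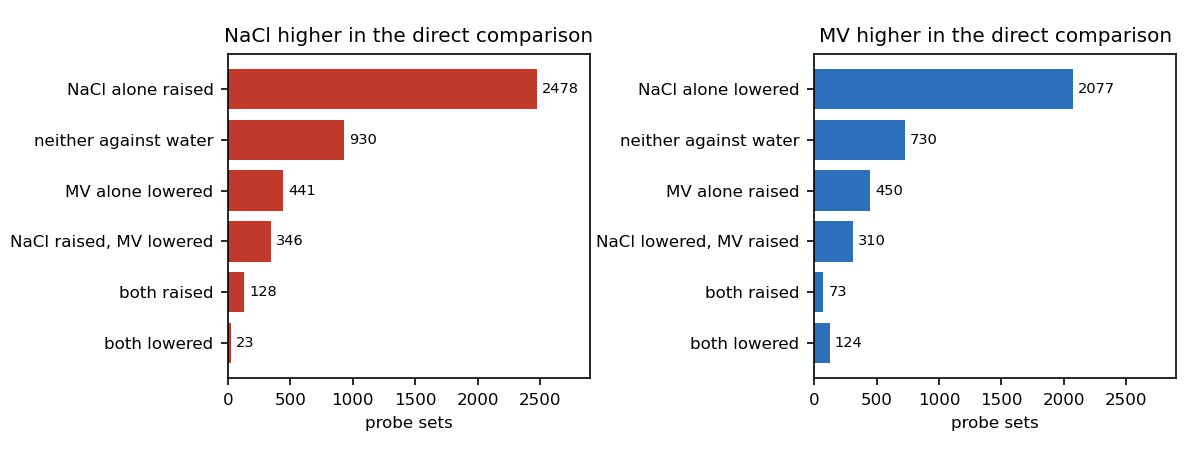
Number of probe sets in each class by the water arrays, at left for the 4346 higher under NaCl and at right for the 3764 higher under MV. In both panels the longest bar belongs to NaCl alone (2478 raised, 2077 lowered).

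Individual genes show each class. AT5G62280 was a gene that MV alone had lowered: it read 6.29, 6.46, 6.44 and 5.56 on the NaCl arrays, 3.19, 3.88, 3.18 and 3.32 on the MV arrays, and 5.24, 5.68, 5.37 and 6.05 in water. NaCl and water values overlapped and the MV values lay below both (2.80 ± 0.23, adjusted p = 3.78e-06). UGT73B5, a family 1 glycosyltransferase, was one that MV alone had raised, and it gave 3.84, 3.74, 3.85 and 3.48 under NaCl, against 6.89, 7.29, 7.42 and 7.49 under MV and 3.89, 3.49, 3.74 and 3.07 in water. Its 4 MV arrays stood 11.7-fold above the NaCl arrays (-3.55 ± 0.17, adjusted p = 1.08e-07). Its neighbour on the chromosome, UGT73B4, differed by -3.24 ± 0.18 (adjusted p = 2.76e-07). AT4G24780 was raised by NaCl (2.26) and lowered by MV (-0.82), which left NaCl 8.45-fold higher. PUB19, a U-box ubiquitin ligase, was raised by both (3.31 by NaCl, 1.11 by MV) and stood 2.20 ± 0.20 higher under NaCl (adjusted p = 7.67e-06). The small heat shock gene AT1G54050 was also raised by both, by 1.08 under NaCl and 3.17 under MV, and stood higher under MV (-2.09 ± 0.16, adjusted p = 2.52e-06). CML41, a calmodulin-like protein gene, was lowered by both (-3.71 by NaCl, -1.09 by MV) and stood higher under MV (-2.62 ± 0.27, adjusted p = 2.17e-05). The NaCl values of CML41 (1.85 to 2.74) were low enough that this may be a lower bound on the size. TRM19 was lowered by both and stood higher under NaCl, by 0.81 ± 0.10 (adjusted p = 7.69e-05).

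Most heat shock and chaperone genes measured were higher under MV. Of 8 small heat shock protein genes measured, 6 were higher under MV and 0 under NaCl, with a median difference of -1.76 beside 0.01 over all probe sets. Of 6 large chaperone and co-chaperone genes, all 6 were higher under MV, with a median of -2.06. Both counts compare with 16.5% of all probe sets called in that direction. The small heat shock gene AT2G29500 gave 2.28, 2.05, 2.10 and 1.32 under NaCl, against 6.24, 5.80, 5.92 and 5.95 under MV and 3.13, 2.71, 2.22 and 2.36 in water. Its MV arrays stood above all NaCl and water arrays (-4.04 ± 0.18, adjusted p = 6.32e-08), with NaCl values low enough that this may be a lower bound on the size. Fes1A, a cochaperone of HSP70, gave 4.75, 4.22, 4.18 and 4.40 under NaCl, against 6.74, 7.04, 6.82 and 6.91 under MV and 4.91, 4.86, 4.34 and 4.37 in water. The NaCl and water values of Fes1A overlapped, and the MV values lay above both (-2.49 ± 0.13, adjusted p = 1.75e-07).

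The remaining chaperone genes spanned a wide range. AT5G51440 differed by -3.04, AT5G48570 by -3.46, AT2G20560 by -2.75, Hop3, which links HSP70 and HSP90, by -1.64, the HSP70 gene AT3G09440 by -1.39 and HSA32, needed for long-term acquired heat tolerance, by -1.07. They differed in which treatment moved them. AT5G51440 was raised by MV (2.63) and AT3G09440 was lowered by NaCl (-1.37). For AT3G09440 the MV and water means differed by 0.02 (adjusted p = 0.95). ATHSP22.0 passed the test with -0.30 (adjusted p = 0.0476), and AT1G52560 (adjusted p = 0.999) and AT5G37670 (-0.30, adjusted p = 0.213) did not pass. BZIP60, a factor of the unfolded protein response of the endoplasmic reticulum, was higher under MV (-0.83 ± 0.16, adjusted p = 0.00144), while CRT1b (0.37) and ATERDJ3B (-0.24) did not pass, with 1 gene of these 3 passing with NaCl higher without wild type MV replicate 1 or either wild type water array.

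Single redox and detoxification genes differed between the treatments. The 8 antioxidant genes measured held 2 higher under NaCl and 1 higher under MV, near the 19.1% and 16.5% of all probe sets, with a median of 0.05. ATMDAR2, a monodehydroascorbate reductase that regenerates ascorbate, gave 7.04, 6.79, 7.04 and 6.88 under NaCl, against 9.08, 8.63, 9.17 and 8.79 under MV and 7.60, 7.74, 7.36 and 7.43 in water. It was 3.95-fold higher under MV (-1.98 ± 0.13, adjusted p = 8.84e-07). CCS, the copper chaperone of superoxide dismutase, was higher under NaCl by 0.63 and the glutathione reductase gene GR by 0.49. The count of 2 fell to 1 without wild type NaCl replicate 2. The chloroplast ascorbate peroxidase genes TAPX (0.25) and SAPX (-0.099) did not pass.

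Among 11 glutathione S-transferase genes, all of the tau class, 3 were higher under NaCl and 2 under MV, also near the 19.1% and 16.5% over all probe sets, with a median of -0.09. GSTU25 read 2.21, 2.93, 2.83 and 2.93 on the NaCl arrays, 4.59, 5.07, 5.04 and 4.59 on the MV arrays, and 3.07, 3.53, 3.68 and 2.99 in water. GSTU25 was 4.28-fold higher under MV (adjusted p = 1.9e-05), and MV had raised it by 1.502 against water. GSTU16 (1.32), GSTU20 (0.97) and GSTU18 (0.53) were higher under NaCl. GSTU27 was the other gene higher under MV (-0.47, adjusted p = 0.0283), and the count of 2 fell to 1 without wild type NaCl replicate 1, OsGRX8 line NaCl replicate 2, wild type MV replicate 2 or OsGRX8 line MV replicate 1. Of 5 genes listed for detoxification of foreign compounds, UGT73B5 and UGT73B4 were higher under MV and UGT73B1 was higher under NaCl (1.01, adjusted p = 0.00666).

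The plant's own glutaredoxins, the family to which the transgene belongs, passed in both directions. Of 19 measured, 7 were higher under NaCl and 8 under MV, against 19.1% and 16.5% of all probe sets, with a median of -0.02. AT2G30540, listed as a CC-type member, gave 6.40, 6.27, 6.27 and 6.33 under NaCl, against 2.99, 3.52, 2.92 and 3.60 under MV and 3.36, 3.64, 3.28 and 3.96 in water. It was 8.32-fold higher under NaCl, with no overlap (3.06 ± 0.19, adjusted p = 6.13e-07). AT4G15680 (2.08), AT4G15690 (1.47), AT3G62930 (1.18) and ROXY2 (1.10), which in flowers acts in anther development, were also higher under NaCl. How far probe sets of near-identical family members share signal was not tested. GRX480, which binds TGA factors in salicylate signalling, read 7.07, 6.76, 6.58 and 7.02 on the NaCl arrays, 7.33, 8.30, 8.14 and 7.98 on the MV arrays, and 4.74, 3.42, 4.60 and 4.07 in water. Both treatments had raised GRX480 over water (NaCl by 2.65, MV by 3.73), and it stood higher under MV (-1.08 ± 0.29, adjusted p = 0.0124). The other 7 higher under MV ranged from -0.98 to -0.40 and included GRXC1 (-0.64) and GRXC2 (-0.44). The count of 8 fell to 5 without OsGRX8 line MV replicate 1.

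Most auxin and cytokinin response genes measured were higher under NaCl. Of the genes listed, 9 of 23 for the primary auxin response and 2 of 14 for the cytokinin response were measured. Of 9 primary auxin response genes, 7 were higher under NaCl and 1, IAA20, was higher under MV (-0.52), against 19.1% and 16.5% of all probe sets. The list's median was 1.40. GH3.3, an enzyme that joins auxin to amino acids, gave 7.96, 8.57, 8.69 and 8.41 under NaCl, against 5.52, 6.34, 7.59 and 6.49 under MV and 5.71, 5.49, 6.25 and 5.35 in water. All NaCl arrays lay above all MV and water arrays, 3.80-fold above MV (1.92 ± 0.28, adjusted p = 0.000277). IAA30 differed by 1.85, WES1, also of the GH3 family, by 1.40, and the lateral organ boundaries factors LBD29 and LBD16, which act in lateral root initiation, by 1.40 and 1.20. GH3.1 did not pass (0.06, adjusted p = 0.804). Both cytokinin response regulators measured were higher under NaCl, and so few genes give no result about the group. ARR15 read 4.23, 4.09, 5.06 and 3.32 on the NaCl arrays, 1.85, 1.95, 1.82 and 1.59 on the MV arrays, and 1.86, 1.66, 1.89 and 1.79 in water. ARR15 differed by 2.37 ± 0.28 (adjusted p = 6.01e-05) and RR16 by 2.79 ± 0.24 (adjusted p = 4.89e-06). The mean log2 signal of the 2 genes was 1.40 to 1.69 on the MV arrays, low enough that both differences may be lower bounds.

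Cell wall genes passed in both directions. Of 14 expansin and xyloglucan enzyme genes, 4 were higher under NaCl and 8 under MV, against 19.1% and 16.5% of all probe sets, with a median of -0.59. Expansins, proteins that loosen the wall, stood on both sides. EXPA15 gave 4.75, 5.30, 5.42 and 5.51 under NaCl, against 2.45, 2.48, 2.08 and 2.83 under MV and 2.75, 2.92, 3.08 and 2.96 in water. EXPA15 was 6.88-fold higher under NaCl (2.78 ± 0.17, adjusted p = 4.29e-07), and EXPB3 (2.36), EXPA8 (1.51) and EXPB1 (0.95) followed. EXPA4 (-1.28) and EXPA7 (-0.45) were higher under MV, as was the expansin-like gene EXLB1 (-1.32). Of the expansin-like A genes, 3 of 3 measured were higher under MV: EXLA3 at -3.04, EXLA2 at -2.75 and EXLA1 at -2.09. EXLA2 gave 3.99, 4.18, 3.60 and 4.34 under NaCl, against 6.06, 7.19, 7.06 and 6.79 under MV and 5.03, 4.76, 4.98 and 5.47 in water. MV had raised and NaCl had lowered each of these 3 against water. XTH19 (-2.81) shared the direction of XTH18, and XTH16 differed by -0.74.

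The dehydration and cold genes measured leaned to NaCl. Of 5 measured, 3 were higher under NaCl and 0 under MV, against 19.1% and 16.5% of all probe sets, with a median of 1.03. Against water, NaCl had raised 2 of the 5, and MV had raised 1 and lowered 1. COR15B, a chloroplast protein that protects membranes in the cold, gave 8.69, 7.86, 7.29 and 8.67 under NaCl, against 5.97, 6.48, 5.89 and 6.92 under MV and 6.90, 6.87, 7.14 and 7.19 in water. It differed by 1.81 ± 0.31 (adjusted p = 0.00085). LEA4-5, a late embryogenesis abundant protein gene, differed by 1.37 ± 0.27 (adjusted p = 0.00205), with both treatments above water. COR15A differed by 1.03 ± 0.24, where MV had lowered it (-1.10, adjusted p = 0.0142) and NaCl gave -0.07 (adjusted p = 0.876). The dehydrin genes LTI30 (0.14) and COR47 (0.11) did not pass. The proline dehydrogenase gene AT5G38710, whose enzyme breaks proline down, was 6.46-fold higher under MV (-2.69 ± 0.23, adjusted p = 6.21e-06), and NaCl had lowered it by comparison with water (-2.41). Lists for abscisic acid synthesis, receptors, phosphatases and transcription factors, sodium transport, jasmonate synthesis and heat shock factors had no named probe set here.

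Most immune and calcium-related genes measured were higher under MV. All 3 immunity genes measured, of 26 listed, passed in that direction, against 16.5% of all probe sets, with a median of -1.85. So few genes give no result about the group. BIK1, a kinase downstream of pattern receptors, gave 5.60, 5.09, 5.68 and 5.63 under NaCl, against 7.34, 7.39, 7.27 and 7.38 under MV and 6.90, 6.91, 7.01 and 6.77 in water. BIK1 was 3.59-fold higher under MV (-1.85 ± 0.12, adjusted p = 7.65e-07), and SAG101, a partner of EDS1 in resistance, differed by -2.02 and EFR, the receptor for bacterial elongation factor, by -1.14. NaCl had lowered all 3 against water. Of 7 calmodulin-like genes, which bind calcium, 5 were higher under MV and 0 under NaCl, against 16.5% and 19.1% of all probe sets (median -2.12). In this family 1 gene passed with NaCl higher without wild type MV replicate 2 or without OsGRX8 line MV replicate 1. CML42 gave 3.25, 1.97, 2.73 and 3.05 under NaCl, against 6.55, 6.58, 6.03 and 6.41 under MV and 5.47, 5.46, 5.09 and 5.38 in water. CML42 was 12.5-fold higher under MV (adjusted p = 5.98e-07), and CML37 (-2.99) and CML38 (-2.12) were raised by MV against water while NaCl did not pass there. The calmodulin-like and expansin-like A families were chosen after the values were seen.

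Both reactive oxygen response factors measured passed, in opposite directions, beside 35.7% of all probe sets called. AT2G28200, listed among them, gave 3.87, 4.25, 3.85 and 4.002 under NaCl, against 3.27, 3.08, 2.42 and 2.54 under MV and 3.85, 3.89, 3.73 and 3.55 in water. It was 2.24-fold higher under NaCl (1.17 ± 0.11, adjusted p = 1.23e-05), where MV alone had lowered it against water (-0.93). STZ, a zinc finger repressor induced by oxidative and salt stress, gave 6.95, 6.51, 7.01 and 7.49 under NaCl, against 8.86, 9.34, 9.12 and 9.20 under MV and 7.32, 7.22, 7.17 and 7.22 in water. The NaCl and water values of STZ overlapped, and MV stood 4.40-fold above NaCl (-2.14 ± 0.15, adjusted p = 1.27e-06). WRKY6 shared this pattern (-2.08 ± 0.16, adjusted p = 2.25e-06), while WRKY53 differed by -0.08 ± 0.24 (adjusted p = 0.856) and had been raised by both treatments against water. AT1G22810, listed among the DREB-type factors, had been raised by NaCl (2.38) and more by MV (3.83), and differed by -1.44 ± 0.26 (adjusted p = 0.00119). The defensin gene PDF1.2b, a jasmonate and ethylene marker, was 3.51-fold higher under MV (adjusted p = 0.000631), NaCl having lowered it, and PDF1.2 did not pass (-0.54, adjusted p = 0.191). Both iron genes measured, of 18 listed, were higher under NaCl, against 19.1% of all probe sets. So few genes give no result about the group. BHLH101, which regulates iron uptake, differed by 2.57 ± 0.49 and PYE by 0.49 ± 0.15. BHLH101 read 6.45, 6.65, 7.63 and 7.09 on the NaCl arrays, 3.25, 5.36, 5.43 and 3.50 on the MV arrays, and 5.59, 5.97, 5.26 and 6.46 in water. The MV replicates of BHLH101 spread from 3.25 to 5.43, and the count of 2 fell to 1 without wild type NaCl replicate 2, OsGRX8 line NaCl replicate 2, wild type MV replicate 2 or OsGRX8 line MV replicate 1.

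Other gene families, also chosen after the values were seen, are set here against the 19.1% of all probe sets higher under NaCl and the 16.5% higher under MV. Shares near these, as for the UGT genes higher under MV, are no result about a family. Of 47 UGT glycosyltransferase genes, 14 were higher under NaCl and 9 under MV (median 0.11), from 1.93 for UGT76E11 to -3.55 for UGT73B5. The cytokinin glycosyltransferases UGT76C1 (1.92) and UGT76C2 (1.495) were among those higher under NaCl. Of 19 CYP71B cytochrome P450 genes, 6 were higher under NaCl and 1 under MV (median 0.09), with CYP71B24 at 2.56 and CYP71B22 at -1.80. The 9 U-box ligase genes held 3 in each direction: PUB19, PUB26 and PUB25 higher under NaCl, and PUB22, PUB23 and PUB43 higher under MV. PUB22 and PUB23, which dampen immune signalling, differed by -2.04 and -1.68. Of 15 GH9 endoglucanase genes, 4 were higher under NaCl and 0 under MV, led by GH9C2 (2.81) and GH9B8 (2.39), with 2 higher under NaCl without OsGRX8 line MV replicate 2. With MV higher, 1 GH9 gene passed without wild type NaCl replicate 2, wild type MV replicate 1 or either wild type water array. Of 14 SWEET sugar transporter genes, 4 were higher under NaCl and 2 under MV, with SWEET4 at 2.27 and SWEET2 at -1.45. The 4 became 2 without OsGRX8 line NaCl replicate 2 or OsGRX8 line MV replicate 2, and the 2 became 1 without either wild type NaCl array, OsGRX8 line NaCl replicate 2, wild type MV replicate 2, OsGRX8 line MV replicate 1 or either wild type water array. Of 11 RALF peptide genes, 2 were higher under NaCl and 3 under MV, among them RALFL22 (-2.30) and RALFL33 (-1.77).

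**Figure D4:**
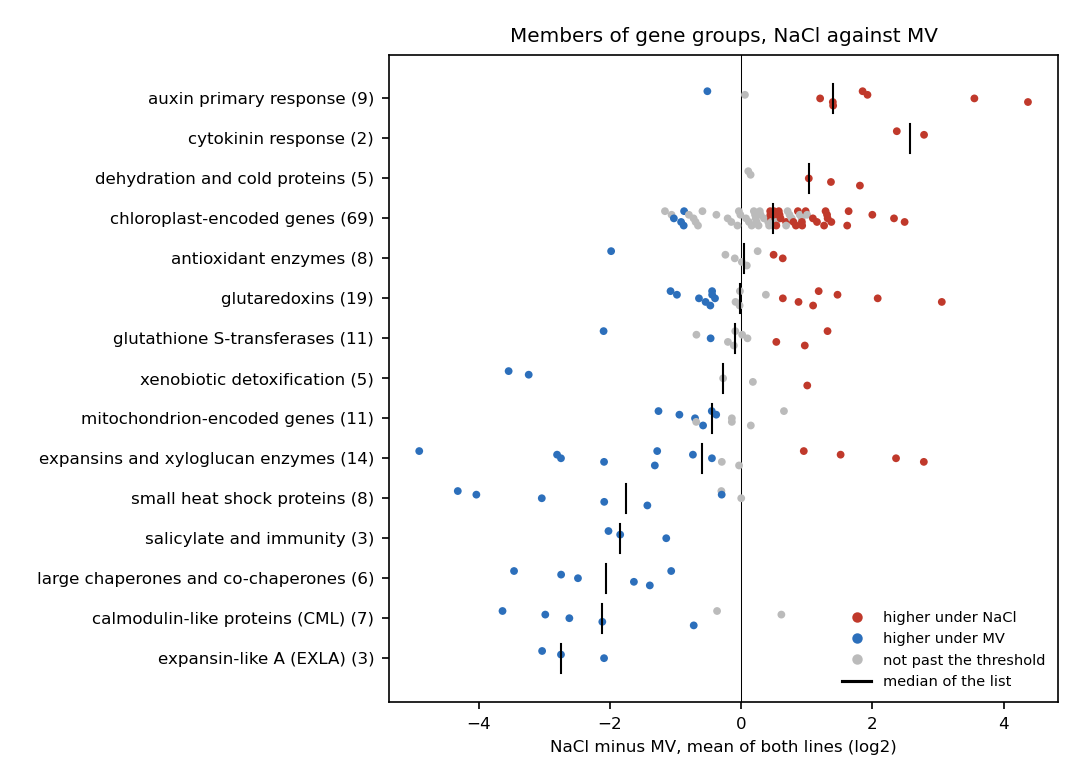
NaCl minus MV difference (log2, mean of both lines) of each member of 15 gene groups, with the number of members in brackets and a bar at the median. Red points passed with NaCl higher, blue points with MV higher and grey points did not pass. The medians run from 2.58 for the cytokinin response genes to -2.75 for the expansin-like A genes.

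The lines were then taken singly. In the OsGRX8 line 5823 probe sets were called (25.6%) and in the wild type 5771 (25.4%), with 2 arrays against 2 in each. Of the calls, 4025 were shared, 69.1% of those in the OsGRX8 line and 69.7% of those in the wild type. They had the same direction in 4016 and the opposite one in 9. Across probe sets, which are not independent, the differences of the lines correlated at r = 0.874 (rho = 0.702). In the wild type 58.2% of the calls were higher under NaCl, and 41.9% after centring each array on its median, a step that moved the median difference of all probe sets to -0.17 in that line, beside -0.02 as deposited. Without wild type NaCl replicate 2 the wild type calls numbered 3841.

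No probe set passed the test of the difference between the lines (0%), where the smallest adjusted p was 0.144 in the limma fit. At an unadjusted p below 0.05 there were 2154 (9.47%). The gene with the smallest p, AT1G08350, had opposite differences in the lines: it read 2.98, 2.81, 3.95 and 3.73 on the NaCl arrays, 3.75, 3.83, 3.08 and 2.71 on the MV arrays, and 3.25, 3.11, 3.36 and 3.13 in water. NaCl minus MV was -0.89 in the OsGRX8 line and 0.94 in the wild type, and the difference between the lines was -1.84 ± 0.23 (adjusted p = 0.144). EXPA9 read 3.59, 3.59, 4.05 and 4.22 on the NaCl arrays, 3.52, 3.25, 2.498 and 2.45 on the MV arrays, and 3.65, 3.65, 3.74 and 3.63 in water. For EXPA9 NaCl and MV stood 0.21 apart in the OsGRX8 line and 1.66 apart in the wild type, a difference of -1.45 ± 0.19 (adjusted p = 0.144). AT5G58570 (-1.77 ± 0.25), AT1G48430 (-1.31 ± 0.19) and AT5G13140 (-1.04 ± 0.19) also had negative differences between the lines, and AT5G23680 had a positive one (1.25 ± 0.20), none past the threshold.

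Genes encoded in the chloroplast held most of the other ranks: of 8 genes with the smallest p and the higher value in the OsGRX8 line, 6 were rpl36, rpl14, psbM, rbcL, rps19 and rpl32. rbcL, the large subunit of rubisco, read 8.15, 8.12, 7.76 and 8.32 on the NaCl arrays, 5.39, 5.16, 7.21 and 6.59 on the MV arrays, and 7.09, 7.02, 7.54 and 7.66 in water. Its NaCl minus MV difference was 2.86 in the OsGRX8 line and 1.14 in the wild type (difference between the lines 1.72 ± 0.31, adjusted p = 0.275). psbM, a small subunit of photosystem II, read 10.51, 10.38, 10.33 and 10.26 on the NaCl arrays, 9.10, 8.62, 10.18 and 10.25 on the MV arrays, and 10.34, 10.47, 10.58 and 10.92 in water. The psbM arrays of MV lay lower in the OsGRX8 line than in the wild type, while the NaCl arrays of the lines lay close together, and the difference between the lines was 1.5 ± 0.25 (adjusted p = 0.249).

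Of 69 chloroplast-encoded genes measured, 29 were higher under NaCl and 4 under MV on the mean of the lines, against 19.1% and 16.5% of all probe sets, with a median of 0.48. Within the OsGRX8 line 40 were higher under NaCl and 0 under MV (median 1.11), against 12.7% and 12.9% of all probe sets in that line. Within the wild type 6 were higher under NaCl and 9 under MV (median -0.18), counts near or below the 14.8% and 10.6% over all probe sets. The differences lay above 0 for 64 of the 69 genes in the OsGRX8 line and for 31 in the wild type. The difference between the lines was above 0 for all 69, beside 11402 of 22746 probe sets, with a median of 1.40 and a range from 0.31 to 3.65. Of the 69, 45 had an unadjusted p below 0.05 for it, and none passed after adjustment. These genes share a genome and the same arrays, so they are not independent. After centring each array on its median, which moved the median line difference of all probe sets to 0.19, the counts on the mean were 28 and 6.

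The mean log2 signal of the 69 genes by array shows where the lines parted. It was 6.95 and 6.51 on the OsGRX8 line NaCl arrays and 6.51 and 7.19 on the wild type NaCl arrays. On the MV arrays it was 5.48 and 5.69 in the OsGRX8 line and 7.37 and 6.86 in the wild type. In water it was 6.66 and 6.33 in the OsGRX8 line and 6.85 and 7.30 in the wild type. The MV arrays of the OsGRX8 line were thus the lowest 2 of the 12, and each of the 69 genes had both of them below both wild type MV arrays. On the MV arrays the GAPDH 3′ to 5′ difference was 0.62 and 0.99 in the OsGRX8 line and 1.45 and 1.18 in the wild type. For ubiquitin it was 2.08 and 2.12 in the OsGRX8 line and 2.12 and 2.0002 in the wild type. For actin it was 3.96 and 3.84 in the OsGRX8 line and 3.94 and 3.62 in the wild type. The lines thus overlapped under MV for ubiquitin and actin and not for GAPDH. The part of these controls in the differences between the lines was not tested. With any 1 array left out, the difference between the lines stayed above 0 in 68 or 69 genes, and the calls within the OsGRX8 line ranged from 28 to 43 with NaCl higher. The 4 higher under MV on the mean became 1 without wild type NaCl replicate 1, OsGRX8 line NaCl replicate 2 or OsGRX8 line MV replicate 2, and 2 without wild type MV replicate 1. Within the wild type, the 6 became 10 without NaCl replicate 1 and 3 without MV replicate 2, and the 9 became 2 without NaCl replicate 1 and 3 without MV replicate 1.

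The median NaCl minus MV difference of the chloroplast complexes ran from 0.78 to 1.43 in the OsGRX8 line and from -0.62 to 0.21 in the wild type. These ranges leave out rubisco, whose 1 chloroplast gene rbcL gave 2.86 and 1.14. For 15 photosystem II genes the median was 1.31 in the OsGRX8 line and 0.08 in the wild type, for 5 photosystem I genes 1.16 and 0.17, and for 6 ATP synthase genes 1.43 and 0.21. For 10 NDH genes it was 0.78 and -0.18, for 6 cytochrome b6f genes 1.11 and -0.62, for 15 ribosomal protein genes 1.11 and -0.18, and for 4 RNA polymerase genes 0.88 and -0.46. On the mean of the lines the largest differences were those of psaA (2.49 ± 0.23, adjusted p = 1.06e-05) and rps14 (2.33 ± 0.40, adjusted p = 0.00083). psaA, a core subunit of photosystem I, gave 6.08, 5.67, 5.47 and 6.66 under NaCl, against 2.81, 2.98, 4.29 and 3.84 under MV and 3.72, 3.30, 3.70 and 3.93 in water. Both lines gave psaA higher under NaCl, by 2.98 in the OsGRX8 line and 1.997 in the wild type. Among genes higher under MV, ndhG differed by -1.03 and psaC by -0.92 on the mean. In the nucleus, 6 photosynthesis genes held 2 higher under NaCl and 0 under MV, against 19.1% and 16.5% of all probe sets. So few genes give no result about the group. The 2 were LHCB4.2 (0.80, adjusted p = 0.0321) and LHCB4.1 (0.36, adjusted p = 0.0364). The count of 2 became 0 without wild type NaCl replicate 2, OsGRX8 line NaCl replicate 1, wild type MV replicate 1 or OsGRX8 line MV replicate 1. It became 1 without OsGRX8 line NaCl replicate 2, OsGRX8 line MV replicate 2 or any 1 water array, and 4 without wild type MV replicate 2.

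**Figure D5:**
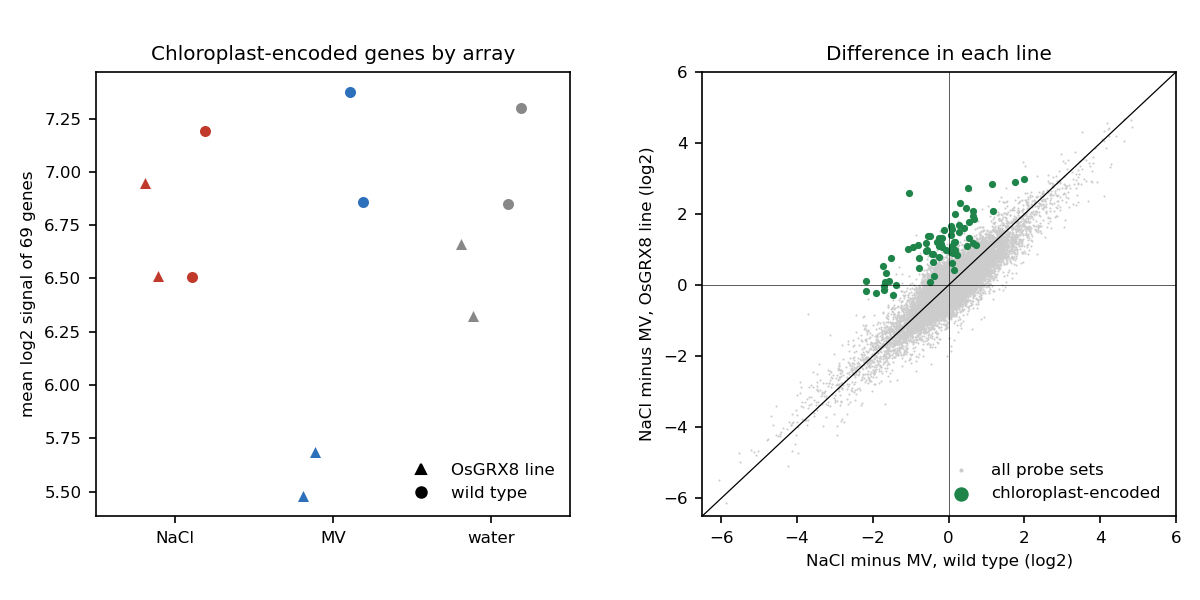
Left, mean log2 signal of the 69 chloroplast-encoded genes on each array, with NaCl, MV and water from left to right, triangles for the OsGRX8 line and circles for the wild type. The OsGRX8 line MV arrays (5.48 and 5.69) are the lowest. Right, the NaCl minus MV difference (log2) of every probe set in the OsGRX8 line (vertical axis) against the wild type (horizontal axis), with the diagonal marking equal differences and the chloroplast-encoded genes in green, all 69 above the diagonal.

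Of 11 mitochondrion-encoded genes, 6 were higher under MV and 0 under NaCl (median -0.45), against 16.5% and 19.1% of all probe sets. With NaCl higher, 1 passed without wild type NaCl replicate 2 or without OsGRX8 line NaCl replicate 1. The mean log2 signal of the 11 genes lay between 1.95 and 2.83 on the NaCl, MV and water arrays. Differences of members near the level of the bacterial control may be lower bounds on their size. cox1, a subunit of cytochrome c oxidase, gave 4.15, 3.51, 3.63 and 3.45 under NaCl, against 4.32, 4.15, 6.41 and 4.90 under MV and 4.01, 3.77, 4.08 and 4.50 in water. It was 2.40-fold higher under MV (-1.26 ± 0.27, adjusted p = 0.00387), with differences of -0.40 in the OsGRX8 line and -2.12 in the wild type. The complex I genes nad6 (-0.94), nad9 (-0.70), nad5 (-0.58) and nad1 (-0.38) passed in the same direction. Within the OsGRX8 line 0 of the 11 passed with MV higher, and within the wild type 5 did, against 12.9% and 10.6% of all probe sets. The 5 became 3 without wild type MV replicate 1, and the 0 became 1 without either wild type MV array or OsGRX8 line MV replicate 2. The test of the difference between the lines passed for none.

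Stomatal lineage genes were among the weaker differences. Of 3 measured, FMA (0.91, adjusted p = 0.0161) and MUTE (0.46, adjusted p = 0.0047) were higher under NaCl than under MV. Both are factors of the guard cell lineage, and SPCH was not called (0.16, adjusted p = 0.384). Of all probe sets 19.1% were higher under NaCl, and so few genes give no result about the group. Against water, NaCl had raised 0 of the 3 and lowered 1, and MV had raised 0 and lowered 1. Their mean log2 signal was low, between 1.72 and 2.88 on the NaCl, MV and water arrays. The root hair expansin gene EXPA7 was higher under MV (-0.45, adjusted p = 0.0127), PYK10 was not called (0.15, adjusted p = 0.632), and RCA was higher under NaCl (0.28, adjusted p = 0.0278). The stomatal count of 2 became 1 without wild type NaCl replicate 2, wild type MV replicate 1 or OsGRX8 line MV replicate 2, and EXPA7 lost its call without wild type NaCl replicate 2. RCA lost its call after median centring and without any 1 NaCl array, wild type MV replicate 1 or either OsGRX8 line MV array. Adjacent genes were taken from the order in the RefSeq table of assembly TAIR10.1. Of 5813 neighbouring pairs of measured genes, both were called in 789, and 459 of these (58.2%) shared their direction. Over all probe sets 35.7% were called, 53.6% of them higher under NaCl. No share was computed for pairs that are not neighbours, so these counts are no result about neighbours. Neighbours with differences of at least 4-fold in one direction included UGT73B5 and UGT73B4, XTH18 and XTH19, EXLA3 and EXLA1, Prx37 and AT4G08780, and AT5G16960, AER and AT5G16980. Tandem copies can share probe signal, and its part was not tested.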

How the data were processed

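Gene expression was measured on ATH1 arrays, and each array has 1 column of log2 signals that the authors deposited, made by RMA per the submitters' processing notes. Its version, program and probe set file: not given in the sources used here. One linear model of 6 group means was fitted to the 12 NaCl, MV and water arrays by lmFit and eBayes of limma 3.58.1 under R 4.3.3 (6 residual and 4.81 prior degrees of freedom). Contrasts averaged the lines, took each line alone, or took the OsGRX8 line's difference minus the wild type's. All tests were two-sided, and p-values were adjusted by Benjamini-Hochberg over the probe sets of each comparison. No 2 arrays were identical. The number of arrays limits the precision.

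Of 22746 probe sets tested, the platform annotation gives 1 gene to 13513, several to 503 and none to 8730, and 13436 matched RefSeq by gene ID. Chloroplast and mitochondrial genes were found through RefSeq. Named genes were the 15 largest differences per direction whose arrays did not overlap, 5 per class by water and direction, 8 per direction for the lines, and members of 37 gene lists, of which 30 had a measured gene (125 of 565 listed genes). The members and lists were chosen with earlier results of these data known, and 8 families were added after the values were seen. The pipeline was tested on simulated data. Alternatives were other samples in the fit, repeated quantile normalization, median centring, a filter on dim probe sets, an intensity trend, array weights, removal of cross-hybridizing probe sets, a 2-fold threshold, the replicate number as a block over all arrays or within each line, and each array left out.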

Additional observations from a re-analysis of the deposited data

Results flagged for a closer look

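Each of the 30 genes with the largest differences was looked at on the 4 NaCl and the 4 MV arrays (60 sets) for a sample far from the others, where chance gives about 1 in 20 by Dixon's 95% critical value, and 2 sets were found. AT1G53540, the small heat shock gene, read 1.03 and 1.67 in the OsGRX8 line and 1.09 and 1.08 in the wild type under NaCl, so that its gap to the nearest array made 0.904 of the range. AT1G56060 read 7.42 and 7.93 in the OsGRX8 line and 8.02 and 7.98 in the wild type under MV, with a gap of 0.839 of the range.

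The IAA arrays take no part in the comparison. Of the same 30 genes, 2 passed against water on them in limma, both among those highest under NaCl. IAA29 stood 4.55 ± 0.30 above water (SE, adjusted p = 6.19e-06), with 5.21 to 6.79 on the IAA arrays and 1.42 to 2.21 in water. HAT2 stood 2.01 ± 0.13 above water (SE, adjusted p = 5.59e-06), with 7.77 to 8.40 on the IAA arrays and 5.84 to 6.48 in water.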

How the results depend on the processing

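The directions held for the genes named and listed: 0 of the called values of 382 genes changed sign under any alternative. The 30 genes with the largest differences passed in each of 683 values from 23 alternatives. These 30 were picked as the largest called differences on the same arrays, so their passing lends no independent support. A 2-fold threshold left 2699 calls between NaCl and MV on the mean, 2714 in the OsGRX8 line, 2830 in the wild type, 2074 for NaCl against water and 626 for MV against water, fewer by its construction. The other alternatives kept these counts within 1.5 times, apart from arrays left out. The filter on dim probe sets tested 11373 probe sets and gave 6243 calls between NaCl and MV. Apart from that filter and the 2-fold threshold, these calls ran from 6865 with all 16 arrays to 8485 with the replicate block within each line. With 1 array left out they ran from 6903 to 7931. Leaving out 1 array gave 4118 to 6017 in the OsGRX8 line, 3841 to 5967 in the wild type, 5628 to 7202 for NaCl against water and 1520 to 2667 for MV against water. The difference between the lines had 0 calls under each of 23 alternatives. No label says what the replicate numbers share: the deviations of same-numbered arrays correlated at 0.01 to 0.14 over 3 pairs of groups within the OsGRX8 line, 0.17 to 0.20 over 3 within the wild type and -0.10 to 0.08 over 9 between the lines. The replicate block over all arrays gave 8208 calls between NaCl and MV, 5991 in the OsGRX8 line, 5924 in the wild type, 7112 for NaCl against water and 2648 for MV against water. A block within each line, chosen after seeing the data, gave 8485, 6266, 6219, 7423 and 2929 for the same comparisons, and neither block moved a count by over 1.5 times. A fit to the 8 NaCl and MV arrays alone has no water contrast, so none was run.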
